A study of Caenorhabditis elegans with 4 samples.

Results

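Y62H9A.3, Y62H9A.4, stha-3 (Y62H9A.5) and ule-5 (Y62H9A.6) are 4 protein-coding genes that lie side by side on chromosome X of the nematode Caenorhabditis elegans. They were chosen because all 4 had some of the lowest transcript ratios of isp-1(qm150);ceh-23(ms23), the double mutant, over isp-1(qm150), so their ratios are given below as a description. The fit over all genes included them, but its p-values for them are not read as results. They are 4 of the 13685 genes that could be measured, and each was read by 1 probe. Total RNA of whole mid-L4 animals, grown at 20 C on OP50 bacteria, was compared on 4 arrays that each held both genotypes, one in Cy5 and the other in Cy3. The double mutant carries both mutations and the other genotype isp-1(qm150) alone, so every sample had the isp-1 mutation. The isp-1 gene encodes a subunit of respiratory complex III in mitochondria. The labels give 3 biological replicates and 1 dye flip of replicate 1, and both arrays of that replicate were counted as 1 sample (n = 3). The comparison asks which transcripts change in the long-lived isp-1 mutant when ceh-23, a homeobox gene, is mutated as well.

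The uterus of the hermaphrodite forms during the fourth larval stage, when its cells line up around a lumen that later holds the fertilized eggs. The ule genes are named for the uterine lumen, where their protein products are found, and they encode secreted proteins that collect there as the adult ages. The name ule-5 places 1 member of the cluster in this group. Y62H9A.3 and Y62H9A.4 have no gene name beyond their sequence names, and no role is given here for them or for stha-3. Because the RNA came from whole animals, fewer cells of a type and less RNA per cell cannot be told apart in any value below.

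The ceh-23 probe did not separate the genotypes. Its mean log2 ratio was -0.09 (SD 0.10, n = 3, limma adjusted p = 0.459, fitted without the filter on dim probes), and the labels do not say which part of the gene ms23 alters, so this probe checks nothing about the mutation. The share of spots well above background was 62.4% to 77.5% in the double mutant and 62.2% to 78.4% in isp-1, higher on the arrays of replicate 1 than on those of replicates 2 and 3. The arrays of replicate 1 lay on 1 slide and those of replicates 2 and 3 on another. Over all genes, 355 of 13685 (2.59%) fell and 106 (0.775%) rose at an adjusted p of 0.05. Of these 461 genes, 459 had an adjusted p of at least 0.049, so the calls sat at the threshold and moved with the processing, while 4912 genes had an unadjusted p under 0.05 (22.3% of all genes lower and 13.6% higher).

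All 4 cluster genes gave a bright signal in both genotypes. On every array each of them was well above background in the double mutant as well as in isp-1, with no saturated and no outlier spot. The median pixel signal was 7.02 to 34.1 times the local background in the double mutant and 11.8 to 324 times in isp-1. The lowered ratios were therefore measured on both sides, and none of them is a bound.

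Y62H9A.3 had processed signals of 616, 773, 1103 and 701 in the double mutant, against 5689, 5809, 4911 and 1863 in isp-1, in the order dye flip of replicate 1, first array of replicate 1, replicate 2 and replicate 3. Processed signals are arbitrary fluorescence units after the scanner software's background subtraction and dye normalization. The highest value of the double mutant lay below the lowest value of isp-1, and replicate 3 stood out by its low isp-1 signal. For genes picked for a low ratio such a gap follows largely from the choice. How many of all genes show it was not counted, here and below. These signals are not scaled between arrays: the 75th percentile of isp-1 signals was 1204.5 on the dye-flip array and 675.6 in replicate 3. After loess normalization the log2 ratio of double mutant over isp-1 was -2.73, -2.04 and -1.26 in replicates 1 to 3. The mean of -2.01 (SD 0.73, n = 3) corresponds to a level 4.03-fold lower in the double mutant.

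Y62H9A.4, the next gene along the chromosome, had processed signals of 627, 858, 1132 and 752 in the double mutant, against 5658, 5443, 4880 and 1730 in isp-1, in the same order of arrays. The genotypes again did not overlap, and replicate 3 again had the lowest isp-1 value. Its replicate ratios were -2.69, -2.06 and -1.19 on the log2 scale, with a mean of -1.98 (SD 0.75, n = 3), or 3.95-fold lower. It was the highest of the 4 ratios. The values of Y62H9A.3 and Y62H9A.4 ran close together on all arrays, and whether the probes could also bind other transcripts was not tested.

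The gene stha-3 had processed signals of 1499, 1590, 2292 and 1828 in the double mutant, against 14214, 14743, 11009 and 4762 in isp-1. No double-mutant value reached the lowest isp-1 value. Its replicate log2 ratios were -3.13, -2.22 and -1.33, with a mean of -2.23 (SD 0.90, n = 3), or 4.68-fold lower. It had the lowest mean ratio of the cluster and the third lowest among all genes, behind tomm-70, which encodes an import receptor of the outer mitochondrial membrane, and Y57G11B.5.

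The uterine lumen gene ule-5 had processed signals of 1143, 1216, 2128 and 1353 in the double mutant, against 8296, 8557, 7745 and 3634 in isp-1. As with its neighbours, the genotypes did not overlap and the smallest gap was in replicate 3. Its replicate log2 ratios were -2.78, -2.0 and -1.33, with a mean of -2.04 (SD 0.73, n = 3), or 4.10-fold lower.

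**Figure D1:**
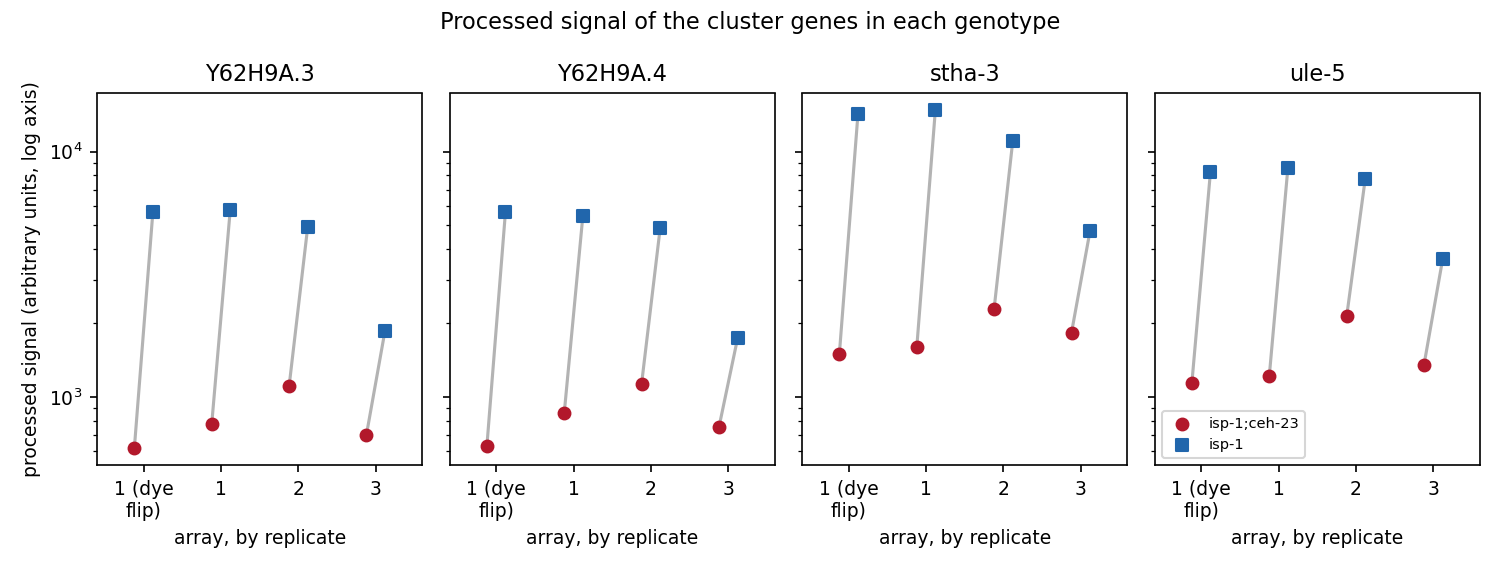
Processed signal (arbitrary units, log axis) of each cluster gene on the 4 arrays, with isp-1;ceh-23 as red circles and isp-1 as blue squares joined by a line for each array. Every circle lies below every square of the same gene, which follows largely from the choice of these genes for a low ratio. The lines are shortest in replicate 3, where the isp-1 signals are lowest (1863, 1730, 4762 and 3634 for Y62H9A.3, Y62H9A.4, stha-3 and ule-5).

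Ranked from the lowest mean ratio, stha-3 was in place 3, ule-5 in place 6, Y62H9A.3 in place 7 and Y62H9A.4 in place 11. Just outside the cluster's highest member came F55B11.2 in place 12 with a mean log2 ratio of -1.98 and ule-3 in place 13 with -1.96. All 4 members were among the 2.59% of genes called lower and among the 1080 genes (7.89%) that were at least 1.5-fold lower with the same sign on all 4 arrays, where 188 (1.37%) were as far higher. Since the members were picked by this ratio, neither count is a result about them. The same holds for their calls under the 18 other settings, in which 0 to 3948 of all genes were called lower. All 4 were called in 12 of these settings, and 3 of them in 1 (trend and robust moderation). None was called in 5, which were no background correction, median centring, no filter, outlier spots kept and without replicate 2.

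With the arrays of replicate 1 averaged, the members differed less from each other than the replicates did. Their close means follow in part from the choice, since all 4 were picked for low ratios. The mean ratios in places 3 to 16 from the lowest, most of them of genes outside the cluster, ran from -2.23 to -1.91. Within a replicate the 4 log2 ratios spanned 0.44 in replicate 1, 0.22 in replicate 2 and 0.14 in replicate 3. The mean of the 4 members was -2.83 in replicate 1, -2.08 in replicate 2 and -1.28 in replicate 3. The values of replicate 1 average 2 arrays of the same RNA. On its dye-flip array the members spanned 0.47 around a mean of -3.22, and on its first array 0.74 around -2.45. The technical gap between these 2 means was about as large as the gaps between successive replicates. As a fold, the cluster was 7.13 times lower in the double mutant in replicate 1, 4.23 times in replicate 2 and 2.43 times in replicate 3. Replicates 2 and 3 shared a slide but not the dye: the double mutant was in Cy5 in replicate 2 and on the dye-flip array, and in Cy3 in replicate 3 and on the first array of replicate 1. The difference between replicates 2 and 3 therefore cannot be told apart from the dye. The mean ratios of these 2 replicates were -1.65 for Y62H9A.3, -1.63 for Y62H9A.4, -1.77 for stha-3 and -1.66 for ule-5.

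The gene stha-3 was lower than each of the other members by a mean of 0.19 to 0.24 on the log2 scale, with SDs of 0.17 to 0.18 over the replicates, and the other pairs had mean differences of 0.06 or less. The dye flip gave a further view of technical spread, because both arrays of replicate 1 held the same RNA. With the double mutant in Cy5, on the dye-flip array, the ratio was below that on the first array by 1.11 for Y62H9A.3, by 1.14 for Y62H9A.4, by 0.54 for stha-3 and by 0.30 for ule-5. In the processed signals the ratios on these 2 arrays were -3.21 and -2.91 for Y62H9A.3 and -3.17 and -2.67 for Y62H9A.4. They were -3.25 and -3.21 for stha-3 and -2.86 and -2.815 for ule-5, so the shifts depended on the normalization. After loess the highest of the 4 was ule-5 on the dye-flip array and Y62H9A.4 on the first array. The order of the 4 ratios among themselves is therefore not resolved by these arrays.

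The replicates differed in both genotypes. Set against the 75th percentile of the processed signals in its own channel, Y62H9A.3 stood at -0.83, 0.20 and 0.06 on the log2 scale in the double mutant of replicates 1 to 3, and at 2.21, 2.37 and 1.46 in isp-1. Its level was thus lowest in replicate 1 in the double mutant and lowest in replicate 3 in isp-1. The same replicates were lowest for the other members: stha-3 had 0.33, 1.26 and 1.44 in the double mutant and 3.55, 3.53 and 2.82 in isp-1. ule-5 had -0.06, 1.15 and 1.01 in the double mutant and 2.77, 3.03 and 2.43 in isp-1, and Y62H9A.4 had -0.74, 0.24 and 0.16 in the double mutant and 2.16, 2.36 and 1.36 in isp-1. The large ratio of replicate 1 therefore went with the lowest double-mutant levels, and the small ratio of replicate 3 with the lowest isp-1 levels. Another scaling of a channel would multiply all genes in it by 1 factor and would shift these levels together.

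Yolk protein genes did not have this pattern in isp-1. In the double mutant, levels in replicate 1 were 0.463 to 0.540 times those in replicate 3 for the 4 cluster genes, 0.336 to 0.484 times for the ule genes outside the cluster, and 0.124 to 0.216 times for the vitellogenin genes vit-1 to vit-6. In isp-1 the same ratio of replicate 1 to replicate 3 was 1.26 to 1.75 for the cluster genes, 1.14 to 1.58 for the other ule genes and 0.491 to 0.908 for vit-1 to vit-6. Vitellogenins are the yolk lipoproteins made by the adult intestine. In isp-1, cluster and ule genes were thus lowest in replicate 3, where the vitellogenins were lowest in replicate 1. Some of these gaps were small, with ule-2 at 1.31 in replicate 1 and 1.11 in replicate 3, and vit-2 at 6.40 and 6.54. Replicates 1 and 3 lay on different slides, and isp-1 was in Cy5 in replicate 3 but in both dyes in replicate 1. The contrast cannot be told apart from slide or dye. It is a description of 3 replicates and was not tested.

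**Figure D2:**
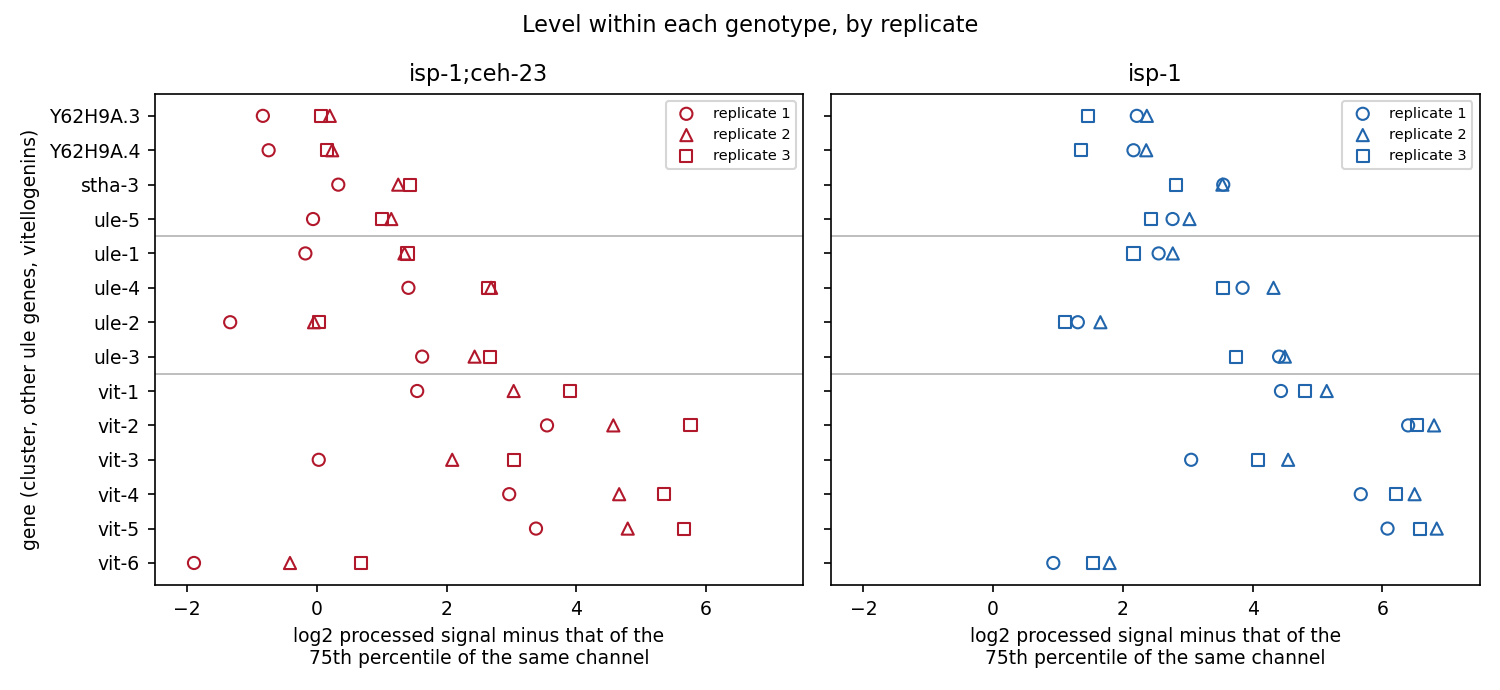
Level of each cluster gene, of the 4 ule genes outside the cluster and of 6 vitellogenin genes in isp-1;ceh-23 (left) and isp-1 (right), as log2 processed signal minus that of the 75th percentile of the same channel, with a symbol for each of the 3 replicates. Replicate 1 (circles) is lowest in the double mutant for all 14 genes, while in isp-1 replicate 3 (squares) is lowest for the 8 cluster and ule genes and replicate 1 for the vitellogenins.

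The 4 ule genes elsewhere in the genome were lower in the double mutant too. No other stha gene was annotated in the gene table used. Of the 4, ule-2, ule-3 and ule-4 fell at an adjusted p of 0.05 (limma), where 2.59% of all genes did, and ule-1 missed it. All 4 kept a negative ratio on all 4 arrays, and the median of their mean log2 ratios was -1.69, against -0.01 over all genes. Read on the same arrays, they give no independent support to the ratios of the cluster.

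ule-3 (D1054.11, chromosome V) had processed signals of 3915, 3655, 5182 and 4283 in the double mutant, against 25612, 26985, 21453 and 9064 in isp-1. Its mean log2 ratio was -1.96 (SD 0.87, n = 3, limma adjusted p = 0.0495), or 3.88-fold lower. It was the nearest of the 4 to the cluster in size, and no double-mutant value reached the lowest isp-1 value.

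ule-2 (F13G11.3, chromosome IV) had processed signals of 410, 577, 932 and 692 in the double mutant, against 3251, 2883, 2990 and 1462 in isp-1, with a mean log2 ratio of -1.72 (SD 0.80, limma adjusted p = 0.0495). ule-4 (C08F11.11, chromosome IV) had processed signals of 3177, 3357, 6182 and 4216 in the double mutant, against 17791, 17800, 19005 and 7897 in isp-1, with a mean log2 ratio of -1.66 (SD 0.85, limma adjusted p = 0.0495). The genotypes overlapped for neither gene, and both had their smallest ratio in replicate 3, at -0.90 for ule-2 and -0.79 for ule-4. As for ule-3 and the cluster genes, how many of all genes show no overlap was not counted.

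ule-1 (W03F11.1, chromosome I) had processed signals of 1204, 980, 2449 and 1775 in the double mutant, against 7287, 7233, 6479 and 3027 in isp-1. Its mean log2 ratio of -1.63 had the largest spread of the 4, with replicate values of -2.71, -1.48 and -0.70 (SD 1.01, limma adjusted p = 0.0531). Without replicate 2, where 0.00725% of all genes were called lower, none of the 4 ule genes passed (limma adjusted p from 0.167 to 0.174), although the median ratio was then -1.70. Without replicate 1, 3 of the 4 passed with a median of -1.29, against 0.687% of all genes. Without replicate 3 all 4 passed with a median of -2.11, against 28.6% of all genes.

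Close neighbours of the scattered ule genes had ratios of the same size at 2 places. Of the 24 genes within 3 places of these 4, 15 were measured, 2 fell and none rose (limma), where 2.59% of all genes fell and 0.775% rose. D1054.10, the gene directly before ule-3, had a mean log2 ratio of -1.99 (SD 0.80, limma adjusted p = 0.0495), whereas D1054.9 on the far side of it had 0.57 (SD 0.25, limma adjusted p = 0.0554). C08F11.12, 3 places after ule-4, had -1.80 (SD 0.68, limma adjusted p = 0.0495), with C08F11.10 directly after ule-4 at -0.57 (SD 0.44, limma adjusted p = 0.0855). Without replicate 2, neither D1054.10 nor C08F11.12 passed (limma adjusted p = 0.167 for both). No role is given here for these neighbours.

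Most measured genes around the cluster on X did not share its low ratios. Of the 20 annotated protein-coding genes on each side, 16 could be measured, and 2 of them fell, none rose and 14 did not pass, where 2.59% of all genes fell. Their median was -0.09, against -0.01 over all genes. At an unadjusted p of 0.05, 4 of the 16 were lower and 2 higher, which is near the 22.3% and 13.6% of all genes. Within 10 genes on each side, 8 were measured, 2 fell and the median was -0.11. Without replicate 2 none of the 16 passed (limma), without replicate 1 only F54F7.3 fell, against 0.687% of all genes, and without replicate 3, 5 fell and 2 rose, near the 28.6% and 14.7% of all genes.

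The genes that touch the cluster could not be compared. Y62H9A.1 and Y62H9A.2, directly before Y62H9A.3, and Y62H9A.8 and Y62H9A.9, 2 and 3 places after ule-5, were not well above background in either genotype on any array. Y62H9A.7, directly after ule-5, was dim, with processed signals of 40.2, 31.9, 26.2 and 24.7 in the double mutant, against 38.2, 40.6, 21.7 and 34.8 in isp-1, and the genotypes overlapped. It was well above background on 2 arrays in the double mutant and on 3 in isp-1, which did not meet the filter.

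The nearest measured gene before the cluster was dot-1.2, a member of the DOT1 histone methyltransferase family, 3 places away. Its mean log2 ratio was -0.11 (SD 0.09, limma adjusted p = 0.46). F54F7.6, 4 places away, fell with a mean ratio of -0.77 (SD 0.29, limma adjusted p = 0.0495), a value that was -1.61 with the scanner software's own log ratio and that did not pass without replicate 1 (limma adjusted p = 0.145) or without replicate 2 (0.175). mes-1, which acts in asymmetric divisions of the germ line founder cells, had -0.23 (SD 0.13), F54F7.8 had 0.15 (SD 0.09) and xtr-1 had 0.34 (SD 0.19), and none of the 3 passed. F54F7.3, 10 places away and named after its value was seen, fell with -1.64 (SD 0.53, limma adjusted p = 0.0495), and without replicate 2 it did not pass (0.167).

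After the cluster, 4 of the 20 genes were measured and none passed. Y62H9A.15 had a mean log2 ratio of 0.14 (SD 0.04), Y62H9A.12 of -0.12 (SD 0.26), and nfya-1, a subunit of the NF-Y transcription factor, of -0.17 (SD 0.16). lsd-1, a histone demethylase family gene, had -0.50 (SD 0.26, limma adjusted p = 0.0664).

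**Figure D3:**
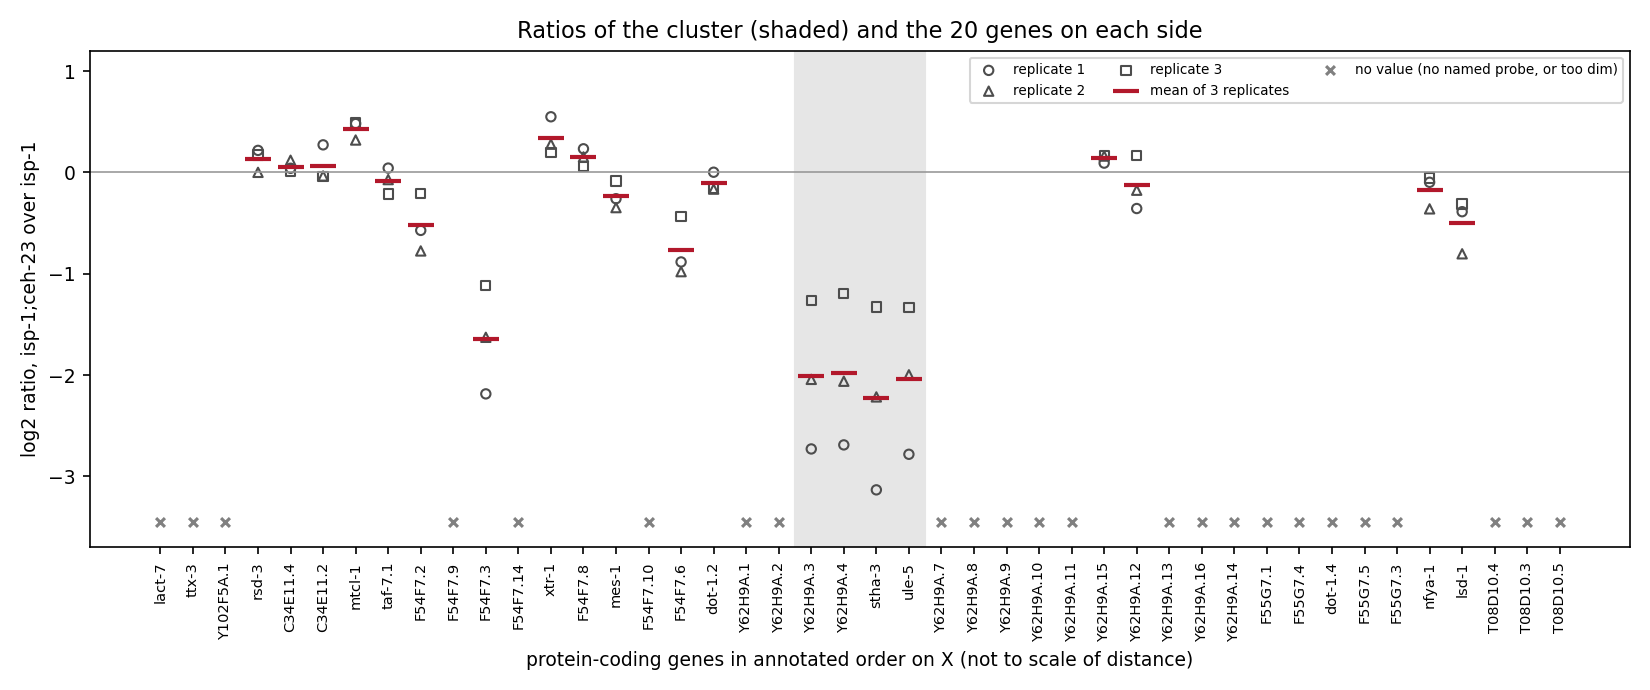
Log2 ratio of isp-1;ceh-23 over isp-1 for the 4 cluster genes (shaded) and the 20 annotated protein-coding genes on each side, in chromosomal order and not to scale of distance, with symbols for the 3 replicates, red bars for their mean and crosses for genes without a value. The 4 means of the cluster lie between -2.23 and -1.98, and of the 16 flanking genes with a value, only F54F7.3 (-1.64) lies below -1.

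Chromosome X as a whole did not share the shift of the cluster. Of its 1819 measured genes, 47 fell (2.58%, against 2.59% of all genes) and 21 rose, with a median log2 ratio of 0.14. By sign and fold alone, 84 X genes (4.62%) were at least 1.5-fold lower on all 4 arrays, against 7.89% of all genes. Among 5719 runs of 4 measured neighbouring protein-coding genes over all chromosomes, 2 had all 4 mean ratios at -1.5 or below. One was the cluster, with a highest ratio of -1.98, and the other ran from D1086.11 to D1086.7 on chromosome V, with a highest ratio of -1.53 and a median of -1.71. The run on X was chosen for its ratios, so its place among the runs is a description.

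Genes linked to uterus and vulva formation, not all of them regulators, were measured as a list. Uterus and vulva are different organs, and these arrays do not show in which tissue the cluster genes are expressed. The list held 17 genes, of which 14 were measured, none fell and none rose (limma), and the median log2 ratio was 0.15 (range -0.25 to 0.42). At an unadjusted p of 0.05, 3 were higher and none lower, against 13.6% and 22.3% of all genes. Without replicate 3, 4 rose and 1 fell at an adjusted p of 0.05, against 14.7% and 28.6% of all genes. lin-12, the Notch receptor that acts in the choice between anchor cell and uterine precursor, had 0.39 (SD 0.13, limma adjusted p = 0.0697). lin-29, a zinc finger transcription factor of the larval-to-adult switch, had 0.42 (SD 0.20, limma adjusted p = 0.0724). The summed processed signal of the 14 genes was 6832 to 16343 in the double mutant and 6627 to 12402 in isp-1 over the 4 arrays. The genotypes overlapped, but such sums are not scaled between arrays, here and below. They also set aside that each array held both genotypes, so an overlap does not show that the genotypes were alike. egl-38, lag-2 and ceh-2 were too dim to measure.

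Genes of the spermatheca and gonadal sheath, the somatic tissues next to the uterus, did not pass either (limma). All 15 on the list were measured, with a median log2 ratio of -0.09 and a range of -0.74 to 0.36. At an unadjusted p of 0.05, 3 were lower and 1 higher, near or below the 22.3% and 13.6% of all genes. sth-1, a gene named for the spermatheca, had -0.74 (SD 0.36, limma adjusted p = 0.0513), and the gap junction genes of the gonadal sheath inx-8 and inx-9 had -0.69 (SD 0.35, limma adjusted p = 0.0543) and -0.48 (SD 0.23, limma adjusted p = 0.0651). spv-1, which encodes a RhoGAP of the spermatheca, had 0.36 (SD 0.08, limma adjusted p = 0.0735). Without replicate 3, 4 of these 15 genes fell and 1 rose, where 28.6% of all genes fell and 14.7% rose. The summed signal was 15718 to 30737 in the double mutant and 16416 to 40207 in isp-1.

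Yolk and eggshell genes were lower in the double mutant as well. Of 22 listed genes 21 were measured, 16 fell, none rose and 5 did not pass, where 2.59% of all genes fell, and their median was -1.42. The median was -2.0 in replicate 1, -1.61 in replicate 2 and -0.74 in replicate 3, so the order of its ratios over the replicates was that of the cluster. The vitellogenin levels within isp-1 ran otherwise, as given above. That order of size was not particular to these genes: germ line markers had medians of -0.71, -0.69 and -0.20, and pharynx markers of 1.43, 0.47 and 0.44. Intestine markers (0.15, 0.005 and 0.26) and the flanking genes (0.02, -0.12 and -0.05) did not have it. perm-4 and perm-2, which act in the eggshell's permeability barrier, fell with -1.55 (SD 0.49) and -1.36 (SD 0.44), vit-5 with -1.80 (SD 0.75) and cbd-1, a chitin-binding protein of the eggshell, with -1.07 (SD 0.40), each at a limma adjusted p of 0.0495. The summed signal of the 21 genes was 89257 to 205430 in the double mutant and 371440 to 650840 in isp-1, without overlap. These sums too are not scaled between arrays, and how often other lists show such a gap was not counted. No listed gene fell without replicate 2, 10 fell without replicate 1 and 20 without replicate 3, where 0.00725%, 0.687% and 28.6% of all genes fell. The part of these tissues in the cluster's ratios was not tested.

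Markers of the large tissues gave smaller ratios, and none of the 12 passed. The 3 germ line markers, glh-1 and pgl-1 of the P granules and the translational repressor gld-1, had -0.58 (SD 0.23), -0.69 (SD 0.56) and -0.52 (SD 0.28), each with an unadjusted p under 0.05, as had 22.3% of all genes in that direction. Their summed signal was 23239 to 47695 in the double mutant and 28612 to 79205 in isp-1. The pharyngeal myosin genes myo-2 and myo-1 had 0.99 (SD 0.70) and 0.57 (SD 0.42), the body wall myosin gene myo-3 had 0.48 (SD 0.27) and the intestinal esterase gene ges-1 had 0.38 (SD 0.16). The medians were 0.78 for the pharynx, 0.27 for body wall muscle and 0.15 for the intestine. Under the 18 other settings these named genes passed (limma) in 3 (pgl-1 and myo-1) to 6 (gld-1). Without replicate 3, glh-1, pgl-1 and gld-1 fell and myo-2, myo-1, myo-3 and ges-1 rose, where 28.6% of all genes fell and 14.7% rose. The markers not named here were not followed under other settings. All markers of these 4 tissues were well above background in both genotypes on every array, and their part in the cluster's ratios was not tested.

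**Figure D4:**
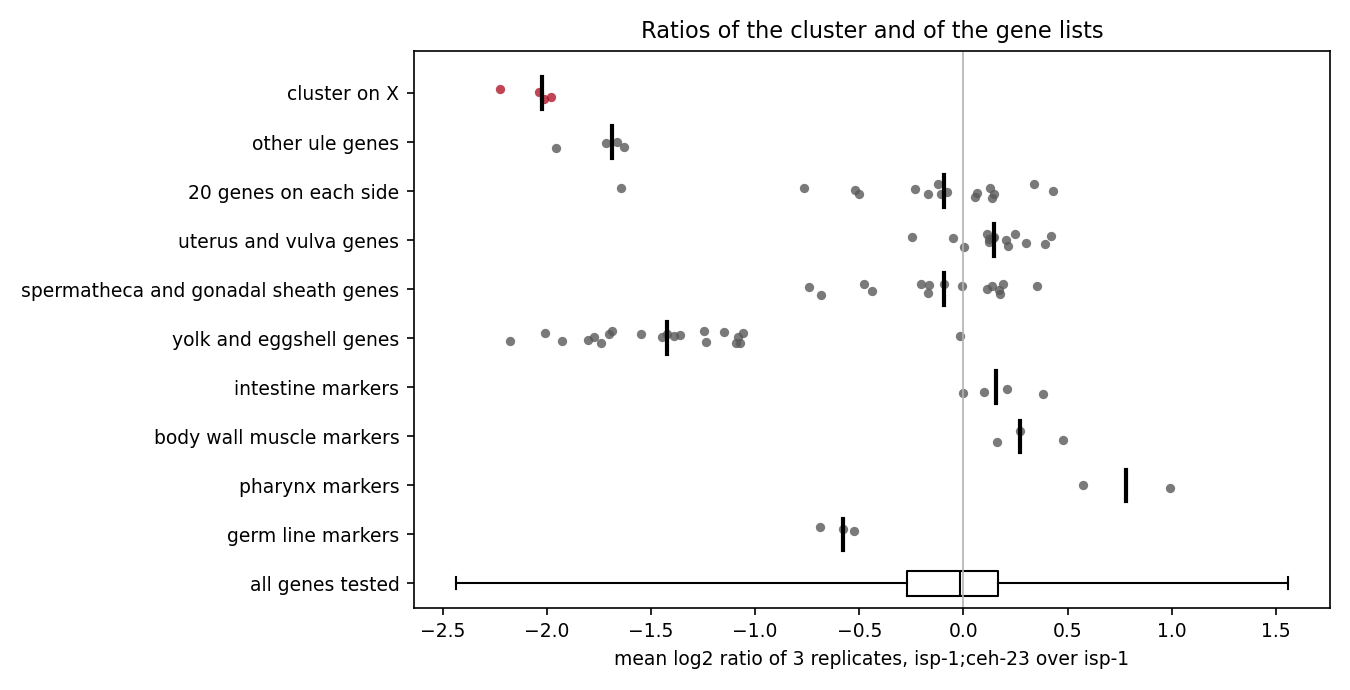
Mean log2 ratio of isp-1;ceh-23 over isp-1 (n = 3 replicates) for the 4 cluster genes (red), the members of each gene list (grey) and all genes tested (box from the lower to the upper quartile, whiskers to the lowest and highest gene), with a black bar at each median. The cluster (median -2.02), the other ule genes (-1.69) and the yolk and eggshell genes (-1.42) lie to the left, while the uterus and vulva genes (0.15) lie around 0.

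The genes whose 4 array ratios were closest to the mean profile of the cluster came from other chromosomes as well as from X. Likeness was measured as the Euclidean distance over the 4 arrays, 2 of which share RNA. The cluster genes themselves were 0.282 to 0.477 from their own mean. D1054.10, the neighbour of ule-3, was nearest at 0.204, with ratios of -3.14, -2.53, -1.91 and -1.24 on the dye flip of replicate 1, the first array of replicate 1, replicate 2 and replicate 3. Then came the yolk gene vit-1 at 0.383, F55B11.3 at 0.399, ZC373.2 at 0.441 and skpo-1, a peroxidase gene, at 0.570. C08F11.12, the neighbour of ule-4, was at 0.607 and nos-2, a Nanos family gene of the germ line, at 0.613. Y37D8A.19, the yolk gene vit-3 and Y45F10C.4 completed the 10 nearest, at 0.667 to 0.706. The 10 lay on chromosomes II, III, IV, V and X, and in each of them the ratio was lowest on the dye-flip array and highest in replicate 3. That order follows from the choice, since they were picked for a profile like that of the cluster.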

How the data were processed

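Per the labels, RNA was linearly amplified into Cy3- or Cy5-labelled cRNA. Per the file headers, arrays of a design on genome build ce4 were scanned and quantified with Agilent Feature Extraction 10.5.1.1. Per the file headers, the deposited scanner output gives median intensity values for spots and for the background around them. It also gives a processed intensity after the scanner software's background subtraction and dye normalization, and a log10 ratio of Cy5 over Cy3. Deposited flags of 0 or 1, other than intensities, mark spots well above background, saturated spots and outliers. The deposited series table holds log10 ratios within 0.00497 of the scanner's.

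In R 4.3.3 with limma 3.58.1, median signals were background-corrected by normexp (offset 50) and loess-normalized, with control and outlier spots at weight 0 and outlier spots (8 to 496 per array) left out, and the labelled dyes set the direction of each ratio, double mutant over isp-1. Probes well above background in the same genotype in all 3 replicates were kept (26248 of 43603). Spot names came from a RefSeq table of genes on assembly WBcel235, 35017 by sequence name and 356 by accession, while 8430 were not named; because the builds differ, it served for names and gene order only. A gene's value is the mean over its probes. Replicate values, the arrays of replicate 1 averaged, were tested for a mean other than 0 (lmFit, eBayes, two-sided). P-values were adjusted by Benjamini-Hochberg over all 13685 genes, and 0.05 was the threshold. eBayes estimated 4.09 prior degrees of freedom. The number of arrays limits the precision, and depth has no meaning here. The script's model was tested on simulated data.

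The members and lists were chosen with earlier results of these data known. Genes named are the 4 members, ceh-23, the 5 nearest measured genes on each side where available, every other ule gene, up to 4 genes of smallest unadjusted p in each list, and the 10 genes nearest the members' mean profile; F54F7.3 and the neighbours of the other ule genes were added after their values were seen. Alternatives changed the background correction, normalization, filter, outlier spots, probe choice, moderation, slide, dye and replicates, and one of them, the dye as a covariate over 3 replicate values, was chosen after seeing the data. A list of genes with proteins similar to the members had been planned and is not reported here.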

Additional observations from a re-analysis of the deposited data

How the results depend on the processing

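The median log2 ratio of the 4 cluster genes stayed between -2.39 and -1.66 under all 18 alternatives, against -2.02 (leaving out 1 replicate at a time gave this same range), and no called value changed sign. The number of genes called depended on the processing: against 461, it was 1734 with the scanner's own log ratio, 1736 with the series table, 1485 with an offset of 0, 2 without background correction (4786 at an unadjusted p of 0.05), 0 with median centring in place of loess (limma; 1476 at an unadjusted p of 0.05), 1 without the filter on dim probes, 749 with a strict filter, 1 with outlier spots kept, 977 with the brightest probe per gene, 1890 with trend and robust moderation, 6598 with the slide as a random block over 4 arrays, 4151 with dye as a covariate over the 3 replicate values, 733 with the dye flip array alone and 777 with the first array alone for replicate 1, and 1 to 5938 without 1 replicate (103 without replicate 1, 1 without replicate 2, 5938 without replicate 3); the cause was not tested. The slide-block count treats the 2 arrays of replicate 1 as separate values. The split moved as well: 758 genes were higher and 976 lower with the scanner's ratio, 759 higher and 977 lower with the series table, and 1459 higher and 431 lower with trend and robust moderation, against 106 higher and 355 lower. ule-2, ule-3 and ule-4 did not pass in 5 of 18 alternatives (no background correction, median centring, no filter, outlier spots kept and without replicate 2, with limma adjusted p from 0.0508 to 0.458), and ule-1 passed in 10 of 18. The median of the uterus and vulva genes was 0.273 with the scanner's ratio and with the series table, and that of the spermatheca and sheath genes was 0.0629 with the dye flip array alone for replicate 1. The lowest processed signal of a member, 616, was 337 as median signal minus median background. The medians of the flanking genes (-0.12 to -0.05), the other ule genes (-2.11 to -1.29) and the yolk and eggshell genes (-1.78 to -1.16) moved by less than the replicate SD. No further paired analysis was run, because every array holds both genotypes and the test of the ratio within arrays against 0 is already paired. The dye as a covariate with an estimated correlation over 4 arrays could not be fitted, and the alternatives for genes with similar proteins were not run.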
